A study of Mus musculus with 12 samples.

Results

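The Dlk1-Dio3 imprinted microRNA cluster was described in small RNA libraries of adult mouse liver. Its members were set by position, with earlier results of these data known. They are the mature microRNAs that the authors' table places on chromosome 12 with a start between 110700000 and 111100000 (mm9). The window held 116 loci with 115 names. In 6 pairs of different names the loci overlapped, and each pair was counted once, which left 109 members among the 1906 names of the table. The libraries came from whole livers of 8-week-old mice of the outbred stock Crl:CD1(ICR), 6 males and 6 females, all untreated as far as the labels say. Each liver gave 1 library. The labels number the livers within a sex without naming litters, cages or batches, so a p-value here reflects variation among these 12 livers only. The comparison that the labels state is male against female.

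Imprinting means that a gene is read from the copy of 1 parent only. In this region the maternal chromosome is transcribed into a chain of noncoding RNAs, Meg3, the antisense transcript of Rtl1, Rian and Mirg, and the microRNAs are cut from them. The paternal chromosome expresses the protein-coding genes Dlk1, Rtl1 and Dio3. The microRNAs are known for high levels in embryo, placenta and brain and for low levels in most adult tissues. Those antisense to Rtl1, such as miR-127 and miR-136, match its messenger RNA fully and direct its cleavage, and in mice loss of the group from miR-379 to miR-410 is known to disturb the change of liver metabolism at birth.

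A microRNA recognises its targets mainly through its seed, bases 2 to 8 from the 5′ end, in capitals in the sequences here. The sequences are those of RefSeq (GRCm38.p6), in which 105 of the 109 members were matched by name, among them all 38 members that passed the filter on low counts. Shown first are the 5 most abundant members, which set most of the summed level, 5′ to 3′.
miR-127-3p: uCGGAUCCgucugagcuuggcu
miR-411-5p: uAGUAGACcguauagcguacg
miR-379-5p: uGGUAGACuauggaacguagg
miR-541-5p: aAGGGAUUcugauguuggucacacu
miR-434-5p: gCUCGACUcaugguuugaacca

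The 38 tested members carried 37 different seeds, with 1 shared seed, that of miR-379-3p and miR-411-3p. These share AUGUAAC and differ at 2 of 22 bases (U10C and U22C, counted from the 5′ end, miR-379-3p first), an identity of 90.9%. The opposite arms of the same hairpins, miR-379-5p and miR-411-5p, are less alike, and their seeds, GGUAGAC and AGUAGAC, differ. miR-300-3p and miR-381-3p differ at 3 bases (G4A, U21G and C22U, miR-300-3p first), and the change at position 4 separates their seeds. The close pairs are shown because reads of such sequences could be split between them by the authors' counting.
miR-379-3p: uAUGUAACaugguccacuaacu
miR-411-3p: uAUGUAACacgguccacuaacc
miR-300-3p: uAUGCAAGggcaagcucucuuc
miR-381-3p: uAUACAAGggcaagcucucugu

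3 further hairpin arms are shown because results below turn on them. The arms of the miR-409 hairpin differed in their balance between the sexes, and miR-329-3p had the most even level of the tested members. The seed of miR-329-3p, ACACACC, is that of miR-362-3p, which is encoded outside the cluster.
miR-409-5p: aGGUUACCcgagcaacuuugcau
miR-409-3p: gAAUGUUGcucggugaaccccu
miR-329-3p: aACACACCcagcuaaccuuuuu

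Because the members varied together between livers, the promoter of Meg3, at the start of the maternally expressed chain, is shown as well. The RefSeq sequence around its first listed start site covers GRCm38.p6 chr12:109540746-109541045 on the + strand, with 300 bases of which 53.67% were G or C and 13 CG pairs. In capitals is TGACGTCA, the cAMP-response element motif, which reads the same on both strands and lies 57 bases before the start site. The same letters occurred in 588 of 32851 mouse promoter windows of this length (1.79%), and in none of the other windows listed for Meg3, Mirg and Rian. This is a match of letters, and binding was not measured here.
Meg3 promoter: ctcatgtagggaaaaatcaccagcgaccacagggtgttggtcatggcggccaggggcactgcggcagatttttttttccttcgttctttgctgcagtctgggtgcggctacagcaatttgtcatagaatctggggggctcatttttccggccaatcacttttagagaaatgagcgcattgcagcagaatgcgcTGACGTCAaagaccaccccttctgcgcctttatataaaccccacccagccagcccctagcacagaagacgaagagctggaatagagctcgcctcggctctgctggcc

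The libraries held between 2953955 and 5516430 microRNA counts, with a male mean of 3993890 ± 955946 (SD, n = 6) and a female mean of 4020676 ± 686165 (SD, n = 6). No pair of libraries agreed within sampling noise. Levels are CPM, counts scaled to a common library size, after TMM scaling, edgeR's trimmed-mean method, and 3 counts correspond to between 0.544 and 1.02 CPM before that scaling. 2 male libraries stood apart in the cluster, male 6 with high and male 2 with low values, and the sex comparisons of the members described in full are also given without them where they moved the value. Hepatocyte marker microRNAs, miR-122, miR-192-5p and miR-148a-3p, summed to between 441003 and 511302 CPM in every liver, so the labelled tissue matched its markers.

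The cluster made up a small share of liver microRNA. Its members together held 46747 counts, 0.0972% of all counts. 90 members had at least 1 count and 19 had none, which over all livers allows a level of up to 0.0624 CPM before TMM scaling for each, for counting error only. 38 members passed the filter on low counts and were tested, and they held 97.6% of the cluster's counts. The other 52 had counts below the filter, 24 of them fewer than 10 counts over the 12 livers. The 3 most abundant members, miR-127-3p, miR-411-5p and miR-379-5p, held 47.3% of the cluster's counts, and the 12 most abundant held 77.9%.

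The members lie in 2 position groups, separated by the widest gap between neighbouring loci, which runs from miR-370-3p to miR-882. miR-882 had no count, and the first locus with counts beyond the gap is miR-379-5p. The group nearer Meg3 had 33 members, of which 27 had counts and 10 were tested. The group nearer Mirg had 76 members, of which 63 had counts and 28 were tested. By the GRCm38 annotation, used for names only, 26 members lie within Mirg, 6 within Rian, 3 within Meg3, 10 on the strand opposite to Rtl1 and 1, miR-3071-3p, on the strand of Rtl1, while 59 lie between these annotated genes. The tested members were 13 of those in Mirg, 2 of those in Rian, 0 of those in Meg3, 6 of those opposite Rtl1, miR-3071-3p and 16 of those between.

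miR-127-3p (chr12:110831098-110831119, mm9), which is antisense to Rtl1, was the most abundant member. Its level in males was lowest at 81.9, median 220 and highest at 509 CPM, and in females 154, 209 and 280 CPM. The female values lay within the male range, and the extremes were male 2, with 398 counts, and male 6, with 1475 counts. The same livers were the extremes for miR-411-5p (chr12:110948400-110948420), the next most abundant member, at 64.2 and 262 CPM with a male median of 123. In females miR-411-5p ran from 95.2 over a median of 133 to 159 CPM. miR-379-5p (chr12:110947275-110947295) was between 47.5 and 214 CPM in males, median 98.1, and between 77.1 and 148 CPM in females, median 118. The 2 hairpins are neighbours on the Mirg side, and their leading arms stood at like levels in each liver.

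miR-541-5p (chr12:110980632-110980656), near the Mirg end, had a male median of 102 CPM between 39.5 and 274, and a female median of 75.2 CPM between 55.5 and 97.7. Here male 6 stood far above the next male, male 3 at 124 CPM. miR-434-5p (chr12:110832738-110832759), antisense to Rtl1, was between 19.3 and 113 CPM in males, median 44.2, and between 33.8 and 58.1 CPM in females, median 44.5. The remaining named members of the 12 most abundant, miR-136-3p, miR-434-3p, miR-300-3p, miR-381-3p, miR-299a-3p, miR-337-5p and miR-411-3p, had lowest values from 5.76 to 17.3 CPM and highest values from 38.3 to 62.5 CPM in males. Male 2 had the lowest male value and male 6 the highest for each of these 7.

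The following less abundant members were singled out after their values were seen. miR-376b-3p, on the Mirg side, ran from 5.15 over a median of 18.4 to 63.2 CPM in males and from 5.71 over 10.7 to 19.1 CPM in females. miR-134-5p, known in rat neurons to limit the size of dendritic spines, ran from 7.82 over 14.1 to 27.6 CPM in males and from 9.28 over 12.8 to 15.2 CPM in females. Male 6 was the highest and male 2 the lowest liver for both, as also for miR-543-3p, miR-495-3p, miR-377-3p and miR-1193-3p. On the Meg3 side miR-433-3p, miR-341-3p and miR-370-3p were highest in male 1 instead, at 9.39, 10.7 and 4.86 CPM, as was miR-410-3p on the Mirg side, at 7.77 CPM. The other tested members not highest in male 6 were miR-329-3p, miR-382-3p and miR-369-5p, all on the Mirg side and each highest in a female liver. miR-3071-3p was lowest in male 1, at 1.94 CPM, and highest in male 6, at 21.1 CPM. Of the members below the filter miR-540-3p had the most reads, 111 over the 12 livers, with 0.412 CPM in male 2, the lowest liver, and 4.49 CPM in male 6, the highest. miR-431-5p, antisense to Rtl1 and likewise untested, was highest in female 1, at 4.41 CPM, and lowest in male 4, at 0.485 CPM.

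Several members cannot be told from an overlapping microRNA of the opposite strand. miR-136-3p and its partner miR-3071-5p both had 1372 counts, miR-299a-3p and miR-299b-5p both 953, miR-337-5p and miR-3544-3p both 858, and miR-299a-5p and miR-299b-3p both 154. miR-3071-3p, kept by the rule with 407 counts, overlaps miR-136-5p with 406. RefSeq places the names of all 6 pairs on opposite strands, and the sources used here do not say whether the authors' counting used strand.

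The cluster varied between livers as a unit. Summed over its members it stood at 1062, 418, 1127, 691, 977 and 2301 CPM in males 1 to 6 and at 1186, 856, 658, 956, 786 and 1117 CPM in females 1 to 6. Male 6 was the highest and male 2 the lowest liver, 5.50-fold apart, and all 6 females lay between them. As a share of all counts, without TMM scaling, male 2 had 368 CPM (Wilson 95% interval 353 to 385) and male 6 had 2246 CPM (2193 to 2301), intervals that cover counting error only. In these bulk samples fewer cells of a type and less RNA per cell cannot be told apart.

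Of the 38 tested members, 31 were highest in male 6, 25 were lowest in male 2 and 21 showed both. Male 6 was above a member's mean log2 level over the 12 livers for 37 of the 38, and male 2 for 0. The median deviation of the members from their own means was 1.32 in male 6 and -1.06 in male 2 on the log2 scale, and between -0.46 and 0.31 in the other 10 livers. Of the 269 tested microRNAs outside the cluster of like abundance, 33 were highest and 52 lowest in male 6. In male 2, 22 were highest and 15 lowest, and in male 1, 42 were highest and 63 lowest. Male 6 and male 1, the shallowest libraries, were thus often extreme in both directions outside the cluster. The median deviation of the 269 stayed between -0.09 and 0.09 in every liver.

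**Figure D1:**
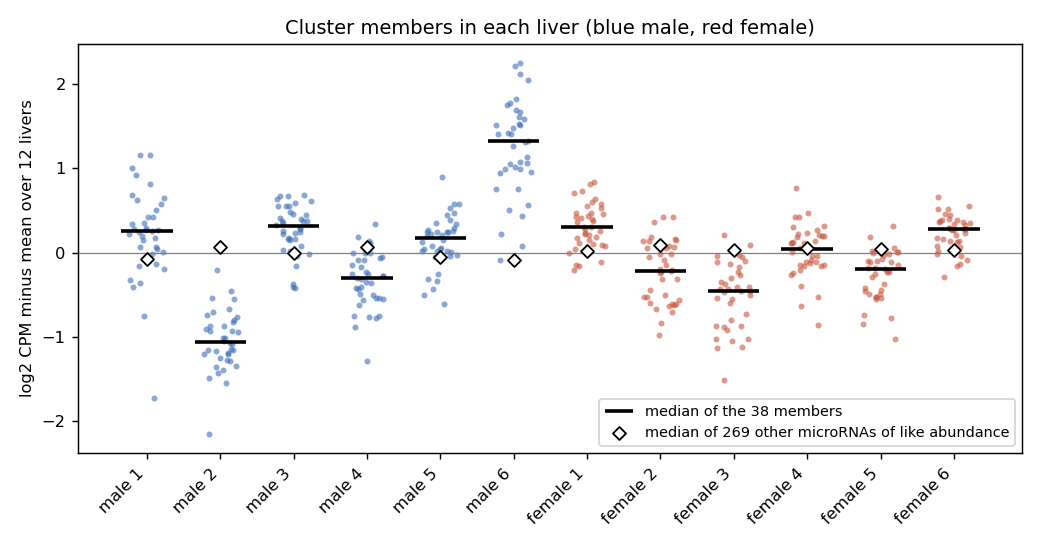
Each point is a tested cluster member in a liver, plotted as its log2 CPM minus its mean over the 12 livers; bars mark the median of the 38 members and diamonds the median of 269 other microRNAs of like abundance. The member medians reach 1.32 in male 6 and -1.06 in male 2, while the diamonds stay between -0.09 and 0.09.

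**Figure D2:**
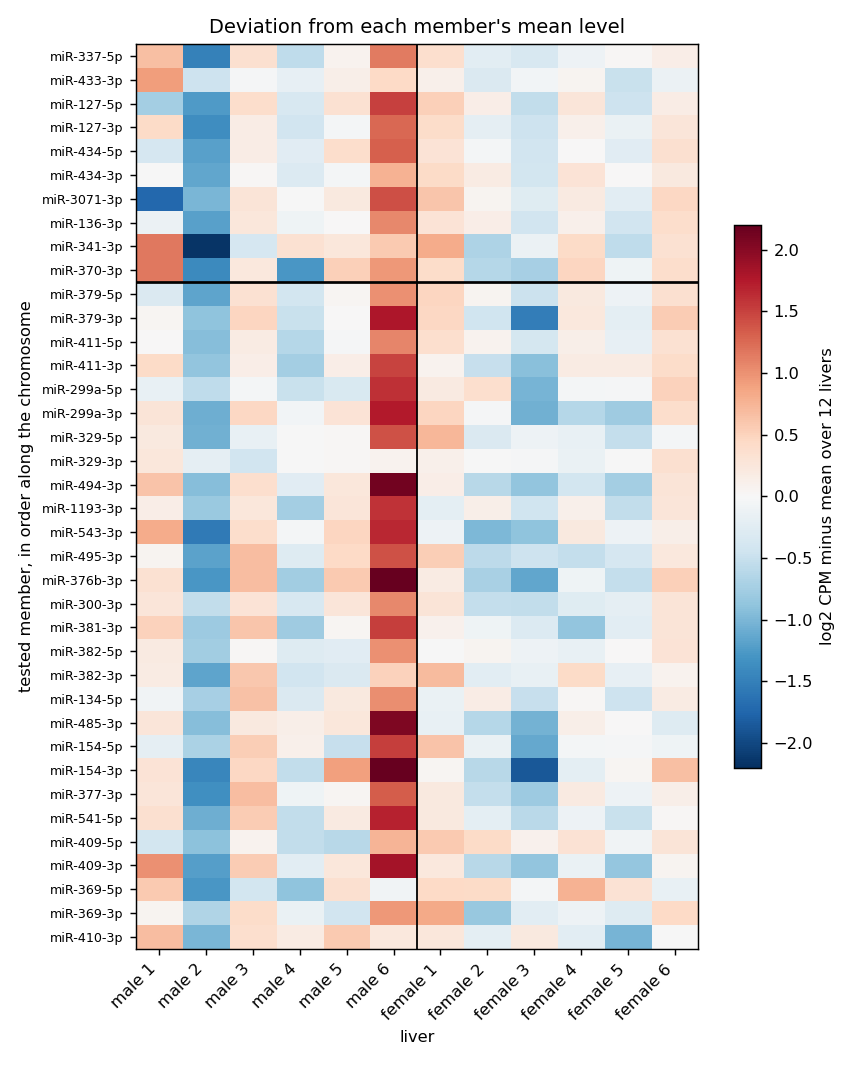
Colours give the log2 CPM of each tested member minus its mean over the 12 livers, with members in chromosome order from top to bottom, a horizontal line between the Meg3 side (10 members) and the Mirg side (28 members), and a vertical line between males and females. Male 6 is red and male 2 blue along nearly the whole column, and the row of miR-329-3p stays pale.

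Both sides of the cluster took part. The Meg3 side summed to between 144 and 845 CPM, a range of 5.86-fold, and the Mirg side to between 274 and 1457 CPM, a range of 5.31-fold. The ratio of the Mirg side to the Meg3 side moved far less, from 1.42 in male 1 to 1.90 in male 2, a range of 1.34-fold. The male mean was 1.64 ± 0.19 (SD, n = 6) and the female mean 1.48 ± 0.05 (SD, n = 6), and the sexes overlapped. Across the 12 livers the level of each member followed the sum of the other members with a median Spearman rho of 0.80, from 0.26 for miR-369-5p to 0.96 for miR-299a-3p, and with rho above 0.5 for 36 of 38. For the 269 microRNAs of like abundance the median rho with the cluster's sum was -0.12, and 4 exceeded 0.5. These values describe livers that share their library sizes and scaling between all microRNAs.

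The spread within a sex was accordingly wide. The standard deviation of log2 CPM among livers of a sex had a median of 0.69 over the 38 members and of 0.31 over the 269 microRNAs of like abundance. 37 members lay above that 0.31, and 19 of the 269 lay above 0.69. The highest liver stood a median of 6.67-fold above the lowest for the members and 2.35-fold for the others. edgeR's biological coefficient of variation had a median of 0.429 against 0.202. The members' median standard deviation was 0.56 without male 2, 0.53 without male 6 and 0.42 without both, where that of the like-abundance microRNAs was 0.29.

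**Figure D3:**
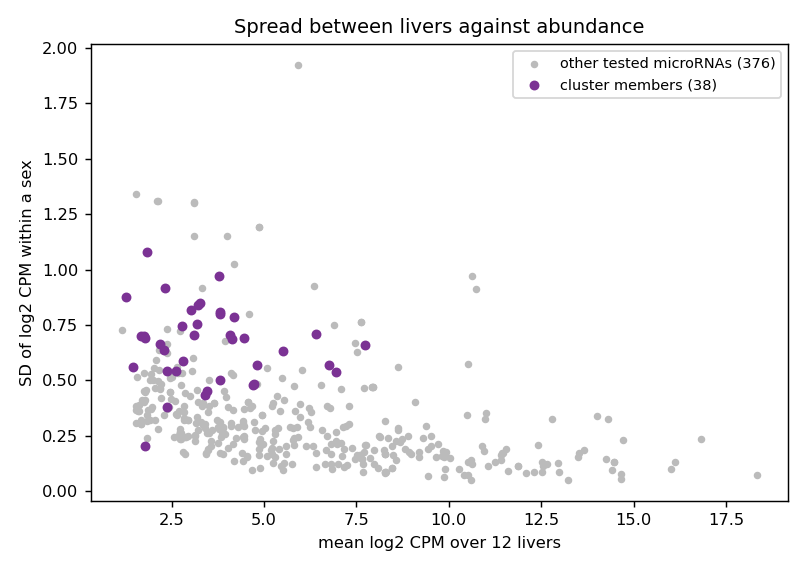
For each tested microRNA the mean log2 CPM over 12 livers is on the horizontal axis and the standard deviation of log2 CPM within a sex on the vertical axis; purple points are the 38 cluster members and grey points the 376 tested microRNAs outside the window. 37 of the 38 members lie above 0.31, the median of grey points of like abundance, and the lowest purple point is miR-329-3p at 0.21.

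The depth and cell type markers of the livers at both ends were as follows. Male 6 had 2967748 counts and male 2 had 5516430, the deepest library. Male 1, the shallowest library with 2953955 counts, stood at 1062 CPM in cluster level. The part of depth in the cluster's range was not tested. Summed levels of stellate, fibroblast and smooth muscle markers (7 microRNAs) ran from 10431 to 16260 CPM in males and from 15000 to 17987 CPM in females, with male 6 the lowest of the 12 livers and male 2 the 11th. The 2 endothelial markers ran from 21232 to 28894 CPM in males and from 24161 to 27335 CPM in females, with male 2 the highest and male 6 the 11th. The 4 hepatocyte markers ran from 441003 to 473383 CPM in males and from 459372 to 511302 CPM in females, with male 6 the lowest.

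The 5 immune markers ran from 500 to 986 CPM in males and from 799 to 1098 CPM in females, with male 6 in the 10th place and male 2 in the 4th. The 4 erythroid markers ran from 910 to 3654 CPM in males and from 1776 to 2631 CPM in females, with male 2 the lowest and male 6 in the 10th place. The 6 biliary and other epithelial markers ran from 1538 to 8076 CPM in males and from 3208 to 8824 CPM in females, with male 2 in the 3rd place and male 6 in the 7th. Of the 8 lists, none was highest in male 6. The part of cell composition in the cluster's range was not tested.

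Brain is a main site of these microRNAs, and nervous system markers were summed as well. The 5 nervous system markers together held 44.2 CPM in male 6 and 38.5 CPM in male 2, the 6th and the 7th place among the 12 livers. Over all livers the range was 33.0 to 82.0 CPM in males and 27.9 to 51.1 CPM in females. In male 6 miR-124-3p and miR-9-3p, defining microRNAs of neurons and neural tissue, had 0 counts, and miR-9-5p stood at 1.38 CPM. The first 2 were near 0 in the other livers also, at most 0.238 CPM for miR-124-3p and 1.21 CPM for miR-9-3p. miR-9-5p was highest in male 4 at 26.9 CPM and in female 4 at 22.4 CPM. The rest of the list's sum in male 6 was miR-137-3p at 37.6 CPM and miR-129-5p at 5.18 CPM, and miR-137-3p made up most of it. The 4 striated muscle markers ran from 8.03 to 130 CPM in males and from 9.28 to 39.8 CPM in females, with male 6 in the 8th place and male 2 the lowest.

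The sex comparison called no member as different. The members' median biological coefficient of variation was 0.429 against 0.196 over all tested names, so a given difference was harder to call in them. With edgeR's quasi-likelihood test and Benjamini-Hochberg adjustment over all 419 tested names at 0.05, 0 of 38 members were higher in males and 0 were higher in females, where 8.35% and 8.59% of all tested names were. In either direction 16.9% of tested names passed. At an unadjusted p under 0.05 there were 2 members, against 29.4% of all tested names, and DESeq2 made 0 calls with 3 members at an unadjusted p under 0.05. The sexes did not overlap for 0 of 38 members and for 8.11% of all tested names. The authors' deposited table gave an FDR under 0.05 to 0 members, against 48 of 2044 loci, and the smallest FDR of a member in the authors' deposited table was 0.252, for miR-409-3p.

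The members' log2 fold changes of male over female were positive for 31 and negative for 7, with a median of 0.29, where the median of all tested names was -0.02. This median depended on male 2 and male 6, since it was -0.04 without male 6, 0.46 without male 2 and 0.12 without both. Its sign thus changed without male 6 alone and not without both. The summed level had a male mean of 1096 ± 647 CPM (SD, n = 6) and a female mean of 926 ± 201 CPM (SD, n = 6), a ratio of 1.18 with overlapping sexes. That ratio was 0.92 without male 6, 1.33 without male 2 and 1.04 without both. miR-127-3p had a log2 fold change of 0.19 with a standard error of 0.33 (edgeR with Benjamini-Hochberg adjustment, adjusted p = 0.749), and miR-411-5p and miR-379-5p stood at 0.01 and -0.06.

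By position, the 10 tested members of the Meg3 side had a median log2 fold change of 0.19, and the 28 of the Mirg side a median of 0.39. Of the Rtl1-antisense group, miR-127, miR-136, miR-431, miR-433 and miR-434, 7 of 10 members were tested, with miR-3071-3p standing for miR-136-5p. Of these, 0 passed in either direction by edgeR's test, 0 had an unadjusted p under 0.05, and their median was 0.19. Whether the 2 sides differ in their response to sex was not tested.

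**Figure D4:**
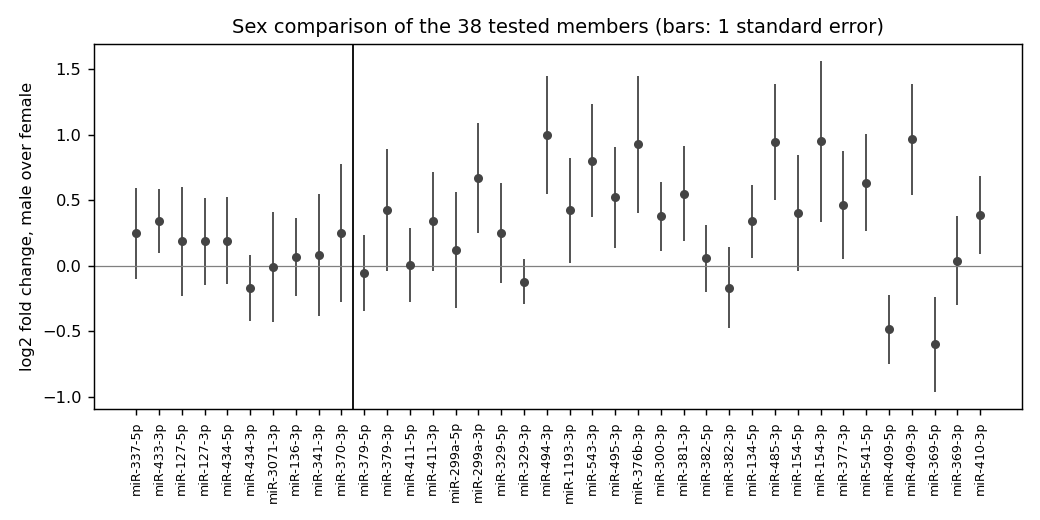
Points give the edgeR log2 fold change of male over female for each tested member in chromosome order, bars 1 standard error, and the vertical line parts the Meg3 side from the Mirg side. 31 points lie above 0 and 7 below, from -0.60 for miR-369-5p to 1.00 for miR-494-3p, and 0 of 38 passed the adjusted threshold.

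The members with the smallest p-values all lie on the Mirg side. miR-409-3p (chr12:110981414-110981435) had a male median of 18.1 CPM between 5.56 and 49.0, and a female median of 10.4 CPM between 7.14 and 15.9. Its log2 fold change, 0.96 ± 0.43 (SE), had an adjusted p of 0.149 (edgeR, Benjamini-Hochberg), and it was 1.16 with an adjusted p of 0.0493 without male 2 and 0.55 with an adjusted p of 0.355 without male 6. miR-494-3p (chr12:110953577-110953598) had a male median of 16.8 CPM between 6.79 and 60.4, and a female median of 9.37 CPM between 7.14 and 16.4. Its log2 fold change, 1.00 ± 0.45 (SE), had an adjusted p of 0.158 by the same test, and without male 6 it was 0.40 (adjusted p = 0.431). miR-485-3p ran from 3.09 over a median of 7.57 to 28.0 CPM in males and from 2.86 over 5.38 to 6.97 CPM in females, with a log2 fold change of 0.95 and an adjusted p of 0.174 by edgeR. Without male 6 the log2 fold change of miR-485-3p was 0.36 (edgeR, adjusted p = 0.441). In all 3 the male and female ranges overlapped, and male 6 was the highest liver.

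The 2 arms of a hairpin are cut from 1 precursor and were set against each other within each liver. 10 hairpins of the cluster had both arms among the tested members. miR-136 was not one of them, because miR-136-5p overlaps miR-3071-3p and was not kept as a member. miR-127 was mostly read as its 3p arm, which stood 23.9-fold above the 5p arm as a ratio of mean CPM. miR-411 and miR-379 gave mostly the 5p arm, with 3p to 5p ratios of 0.138 and 0.0944, and miR-434 had a ratio of 0.556. The log2 ratio had a median standard deviation within a sex of 0.42 over the cluster hairpins, below the 0.63 of the log2 levels of their arms. Over 119 hairpins with both arms tested it was 0.29 against 0.26. These 119 leave out the let-7 hairpins, and overlapping names such as miR-299a and miR-299b count in them as separate hairpins.

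The balance of the miR-409 arms differed between the sexes. The 3p to 5p count ratio was 3.54, 1.04, 1.81, 1.62, 2.41 and 2.73 in males 1 to 6, and 1.00, 0.611, 0.638, 0.922, 0.735 and 1.10 in females 1 to 6. Every male had more 3p than 5p reads, and the sexes overlapped through male 2 and female 6 alone. The log2 ratio was higher in males by 1.27 with a standard error of 0.26, or 2.41-fold (limma on the log2 ratio, adjusted p = 0.0160 by Benjamini-Hochberg over 119 hairpins). 3 of the 119 hairpins passed (2.52%), and miR-409 was the 1 of 10 in the cluster. This test was added after the data had been seen.

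The 2 arms moved in opposite directions in their fitted levels, miR-409-3p with 0.96 and miR-409-5p with -0.49, although neither passed by edgeR's test (adjusted p = 0.149 and 0.252). miR-409-5p (chr12:110981382-110981404) had a male median of 7.40 CPM between 5.35 and 18.0, and a female median of 13.0 CPM between 9.87 and 15.9. 5 of 6 males lay below 11.2 CPM and male 6 above every female. Without male 6 its log2 fold change was -0.76 (edgeR, adjusted p = 0.0225), and without male 2 and male 6 it was -0.65 (adjusted p = 0.0482). The ratio difference kept its call without male 2 and male 6 (adjusted p = 0.00887) and lost it without female 2 (adjusted p = 0.0521) or without female 3 (adjusted p = 0.0526). It passed with each of the other 10 livers left out.

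**Figure D5:**
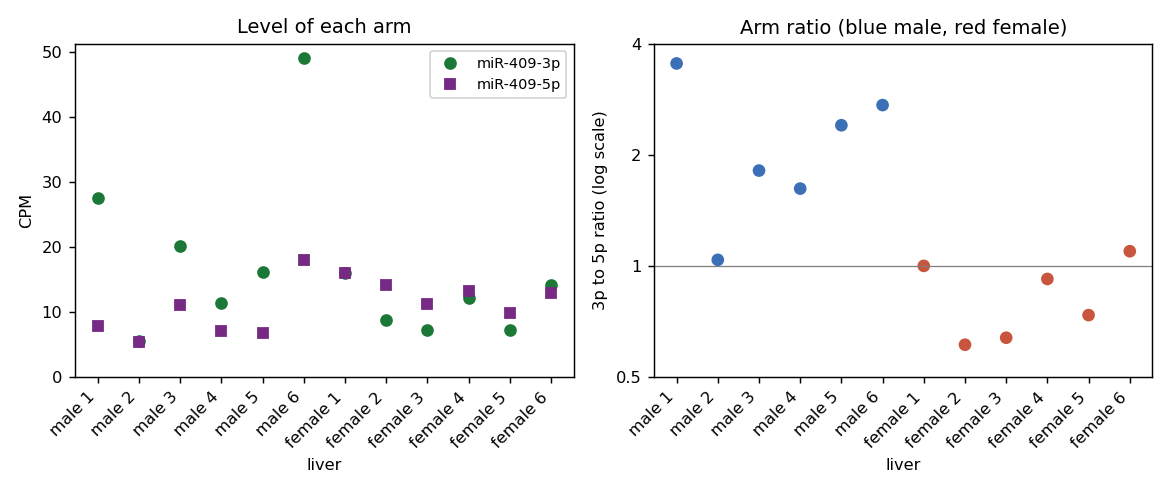
The left panel gives the CPM of miR-409-3p (circles) and miR-409-5p (squares) in each liver, and the right panel the 3p to 5p count ratio on a log axis, males in blue and females in red. Male ratios run from 1.04 to 3.54 and female ratios from 0.611 to 1.10.

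In the other 9 cluster hairpins the ratio did not pass. miR-299a had a male median ratio of 8.51 and a female median of 4.87, a log2 difference of 0.53 (limma, adjusted p = 0.192). miR-379 had a male median of 0.0978 and a female median of 0.0824, a log2 difference of 0.48 (limma, adjusted p = 0.214). These were the other 2 cluster hairpins with an unadjusted p under 0.05. The differences of the remaining 7 ran from -0.26 for miR-434 to 0.63 for miR-369.

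Among the tested members miR-329-3p (chr12:110951751-110951772) stood out by its even level. It was between 2.06 and 3.56 CPM in males and between 2.58 and 3.89 CPM in females, with medians of 2.94 and 2.90. Its standard deviation within a sex was 0.21, the lowest of the 38, and male 6 was not above the other livers. The opposite arm, miR-329-5p, ran from 1.85 to 12.4 CPM in males and from 2.90 to 7.59 CPM in females, with male 6 the highest and male 2 the lowest liver. The level of miR-329-3p rests on few reads, between 8 counts in male 3 and 22 in female 6. Whether its evenness goes beyond counting error was not tested. The microRNA was named here through the rule on hairpins with both arms tested. miR-369-5p, the member with the lowest rho to the rest, had a male median of 1.81 CPM and a female median of 3.03 CPM, with a log2 fold change of -0.60, or -0.39 without male 2.

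The tested arms of miR-296 and miR-335, from other imprinted genes, differed between the sexes. For comparison a short list of microRNAs from imprinted host genes outside the cluster was used, which does not hold every such host. Its 3 tested arms were all higher in females by edgeR's test with Benjamini-Hochberg adjustment, where 8.59% of all tested names were. They were miR-296-5p, from the Gnas region (log2 fold change -1.80, adjusted p = 0.000974), and both arms of miR-335, from Mest (-0.85 and -0.75, adjusted p = 0.00343 and 0.0196). miR-335-3p stood at 91.8 CPM in male 2 and 45.6 CPM in male 6, so the order of these 2 livers was the reverse of that in the cluster. The microRNAs outside the cluster whose log2 CPM followed its sum most closely, out of 278 names averaging 10 CPM or more, were miR-425-5p (Spearman rho 0.74 over 12 livers), miR-144-5p (0.61), miR-19b-3p (0.59), miR-20a-5p (0.55) and miR-203-5p (0.50). Their levels spanned less than those of the cluster, and miR-425-5p lay between 109 CPM in male 2 and 144 CPM in male 6.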

How the data were processed

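Strand-specific small RNA libraries were made from total liver RNA, per the labels' protocols. Trim Galore, Bowtie2, bedtools, edgeR and the mm9 build appear in the submitters' processing notes, without versions. How reads were aligned, which microRNA annotation was used and whether counting used strand is not stated in these sources. The authors deposited counts as whole numbers for 2044 mature loci in each liver, not normalized, together with the authors' log2 fold changes, log2 CPM, p-values and FDR, per the file headers.

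Counts of loci sharing a name were summed to 1906 names. Overlapping members were counted once, keeping the name with more counts, or the lower microRNA number at a tie. Males were tested against females with edgeR 4.0.16 under R 4.3.3 (TMM scaling, filterByExpr by sex, glmQLFit and glmQLFTest, no covariate, Benjamini-Hochberg threshold 0.05). The filter left 419 names with 99.97% of all counts; the common biological coefficient of variation was 0.252. Positive log2 values mean higher in males. Log2 CPM used a prior count of 2. The log2 ratios of the arms were tested with limma 3.58.1 with the same prior added to each count. Figures were drawn with matplotlib 3.10.9.

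Like abundance means a mean CPM over the 12 livers within the range of the tested members. Named are the 12 most abundant members, the 3 with the smallest p, tested members of hairpins with both arms tested, and 5 names outside that follow the cluster's sum. miR-9, miR-124 and other marker names come from the marker lists. The members and lists were chosen with earlier results of these data known. Both models were tested on simulated data with less spread than the cluster's members and arm ratios had. That test therefore does not show how well differences in the members would be found. Alternatives were DESeq2 1.42.0, other scalings and filters, a replicate block and each liver left out. RefSeq sequences of GRCm38.p6 were matched by name, and no coordinates were converted.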

Additional observations from a re-analysis of the deposited data

Results flagged for a closer look

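In each sex the highest and the lowest liver were compared with the others for the named members, the summed level, the depth and the 10 arm ratios by Dixon's criterion for 6 values. 14 of 78 checks stood out, where chance gives about 1 in 20, and members that vary together are not independent checks.

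11 of the 14 were high values of male 6 among the males. They were miR-541-5p at 274 CPM, miR-299a-3p at 61.1, miR-494-3p at 60.4, miR-411-3p at 46.3, miR-379-3p at 32.4, miR-485-3p at 28.0, miR-127-5p at 25.2, miR-154-3p at 16.6, miR-329-5p at 12.4, miR-299a-5p at 10.01 and miR-154-5p at 8.63 CPM. The next male stood at 123.8 CPM for miR-541-5p, 21.0 CPM for miR-494-3p and 7.77 CPM for miR-485-3p. In female 1, miR-329-5p stood at 7.59 CPM, far above the next female at 4.24 CPM.

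2 arm ratios stood apart. Male 1 had a miR-127 3p to 5p ratio of 58.5, where the next male had 24.9. Male 3 had a miR-382 3p to 5p ratio of 0.85, where the next male had 0.556.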

How the results depend on the processing

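Over all tested names 71 passed in all livers, 70 with RLE size factors, 84 with total counts alone, 54 without a filter, 63 at a mean of at least 10 CPM, 85 with DESeq2, 74 with overlapping names counted once, and 47 to 82 with a liver left out; 47, without male 3, was the 1 omission that moved the count by more than 1.5 times. Scaling by total counts alone put 31.0% of calls higher in males, against 49.3%, with a median of -0.12 over all tested names (-0.02 with TMM) and of 0.20 over the members. No member passed in either direction under any alternative, except 1 higher in males without male 2, 1 higher in females without male 6, and 1 higher in females without both; the count with a liver left out thus ran from 0 to 1 in each direction. The members' median spread was 0.42 without both males. The miR-409 ratio difference ran from 1.11 to 1.45 with a liver left out. The labels do not state that livers of the same replicate number were paired. Deviations correlated above 0.1 in 2 of 6 same-number pairs, and 0 livers correlated best with their own number. So few correlations cannot decide whether livers were paired. The fit with a replicate block made 48 calls over all names, with 0 members, and moved the members' median to 0.22.

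Of 530 values of named members under alternatives, 485 kept direction and side, 3 passed the threshold and 42 changed sign, in 15 of 27 members; the cause was not tested. With total counts alone these were miR-411-5p (-0.093), miR-136-3p (-0.032), miR-369-3p (-0.068) and miR-382-5p (-0.040). With the block they were miR-411-5p (-0.11), miR-136-3p (-0.016) and miR-382-5p (-0.0100). miR-411-5p was also -0.0014 at a mean of at least 10 CPM and -0.0037 with overlapping names counted once. Without both males they were miR-411-5p (-0.16), miR-136-3p (-0.027), miR-127-5p (-0.069), miR-299a-5p (-0.39), miR-369-3p (-0.076) and miR-382-5p (-0.089). With a liver left out the log2 fold changes ran from -0.33 to 0.10 for miR-379-5p, -0.35 to 0.0014 for miR-382-3p, -0.30 to 0.14 for miR-411-5p, -0.21 to 0.27 for miR-369-3p, -0.15 to 0.36 for miR-127-3p, -0.18 to 0.36 for miR-434-5p, -0.21 to 0.23 for miR-136-3p, -0.022 to 0.44 for miR-337-5p, -0.069 to 0.50 for miR-411-3p, -0.27 to 0.37 for miR-127-5p, -0.041 to 0.63 for miR-154-5p, -0.46 to 0.26 for miR-299a-5p, -0.16 to 0.48 for miR-329-5p, -0.11 to 0.60 for miR-379-3p and -0.22 to 0.19 for miR-382-5p. Depth limits the 52 members below the filter.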
